A study of Drosophila melanogaster with 8 samples.

Results

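After partial ablation of the insulin-producing cells (IPCs) of the fly brain, 331 of the 763 listed regions of dFOXO ChIP-Seq (43.4%) were at least 8000 bp wide. These 331 regions are called broad domains here. Each distinct region was counted once, whatever the number of genes listed for it, and the members were chosen by their width alone, a measured value. Widths came from the same ChIP and input libraries as the enrichments after IPC ablation, so those enrichments are given as descriptions. Counts of regions past a threshold are printed for them as descriptions too, and nothing is read from them.

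Chromatin came from whole females aged 15 days, pooled in batches of 200 to 250 flies per ChIP sample. The series held 8 samples, which were 2 of ChIP DNA and 2 of input DNA for each of the genotypes IPC ablation and *chico*. IPC-ablated flies carried *Dilp2-GS-Gal4*, a driver active in the IPCs once RU486 is fed, and *UAS-rpr*, which makes the cell death protein Reaper, and the ablation was partial. The *chico* flies were heterozygous for *chico1*, a mutation of the insulin receptor substrate, in a background that also carried *y1*, *cn1* and *ry506*. Both genotypes had reduced insulin signalling, and no wild-type library was analysed here. The authors pooled the replicate libraries, so each genotype gave a region 1 number of ChIP tags and 1 of input tags. Intervals below are 95% exact binomial (Clopper-Pearson) intervals that cover counting error only, and no spread between replicates can be given. Intervals and tests take the scaled input as if it were a count, so they only approximate the counting error of the sequenced tags. Since whole flies were used, more binding in fewer cells and less binding in more cells cannot be told apart.

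dFOXO is the fly's FOXO transcription factor, a forkhead protein that is phosphorylated and held in the cytoplasm when insulin signalling is active. When insulin signalling is low it enters the nucleus and binds short DNA motifs near its target genes, among them the translational repressor *4ebp* (*Thor*). Factors that bind a short motif usually give narrow ChIP peaks, whereas wide stretches are better known from histone marks and polymerase.

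Of 23 genes the study took up as candidates, 7 had listed regions after IPC ablation, 4 of them narrower ones. The other 3 had broad domains, beside 45.8% of all genes listed after IPC ablation. These were *Thor*, the Wnt ligand *wg* and *wit*, a type II receptor of TGF-β ligands. The primers below are listed for these genes under ChIP-PCR in the study's supplementary primer table, and are shown as the designed sequences for these 3 members. They are written 5′ to 3′. *Thor* and *wg* lie on 2L and *wit* on 3L, and the primers were not placed on the genome here, so whether they lie inside the domains was not tested.
4ebp forward: gattggcgtttagtgctgttggct
4ebp reverse: gcttctcgccttgagctcttgttt
wg forward: tgctggctatataccgcacacaca
wg reverse: tatatggcgcggtgatcgttcgtt
wit forward: atttacgaagctgcgtggaatggc
wit reverse: tcgctacgatgccttgctctcttt

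The broad domains covered 5.91 Mb, against 1.76 Mb for the other 432 listed regions. Their median width was 14150 bp (range 8027 to 99265 bp), against 3711 bp (range 1295 to 7976 bp) for the others. Widths of at least 20 kb were found for 93 domains and of at least 40 kb for 15. Just inside the minimum lay the domains of *Vsx1* (8027 bp), *CG12858* (8036 bp) and *CG9134* (8047 bp). Just outside it lay the regions of *KCNQ* and *CG34221* (7976 bp), *CG3215* (7958 bp) and *jing* (7912 bp). The enrichments of these 6 regions lay between 1.008 and 1.027 on both sides of the minimum, so the limit separated no visible classes.

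Enrichment, the ratio of ChIP tags to input tags scaled to the ChIP library, was close to 1 throughout the broad domains. The median was 1.017 (range 1.000 to 1.089), against 1.025 (range 1.001 to 1.277) in the other regions. The domains held 1769790 ChIP tags, 76.8% of the tags of the list. Summed over all domains, the ratio was 1.020 (interval 1.018 to 1.022), and over the other regions it was 1.031 (interval 1.027 to 1.035). Every listed region had an excess of at least 1 ChIP tag over scaled input, so summed ratios above 1 follow from the list. The authors scaled the input with a factor per chromosome arm, and with 1 factor for all arms, an alternative chosen after seeing the data, the summed ratio of the domains was 0.995, on the other side of 1. A domain had a median of 4307 ChIP tags (range 1635 to 34623) and of 4190 scaled input tags (range 1631 to 34081). The median excess of ChIP over input tags was 79 tags per domain (range 1 to 667). Enrichment was under 1.05 in 300 domains (90.6%), against 340 of the other regions (78.7%), and it was under 1.01 in 100 domains. The interval lay wholly above 1 in 47 domains, against 27 of the other 432 regions and 74 of all 763. The highest upper bound of any domain was 1.15.

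Enrichment was lower in wider regions while the number of excess tags was higher. The median enrichment was 1.026 in the 232 regions of 1 to 4 kb and 1.022 in the 200 regions of 4 to 8 kb. It was 1.020 in 118 domains of 8 to 12 kb, 1.018 in 120 domains of 12 to 20 kb, 1.014 in 78 domains of 20 to 40 kb and 1.015 in 15 domains of 40 to 100 kb. The median excess rose along the same classes from 20 tags to 194 tags. Within the broad domains, Spearman's rho of width with enrichment was -0.094 and of width with excess tags 0.349 (n = 331). Domains of 1 arm share an input factor and all share their libraries, so these values only describe the list.

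**Figure D1:**
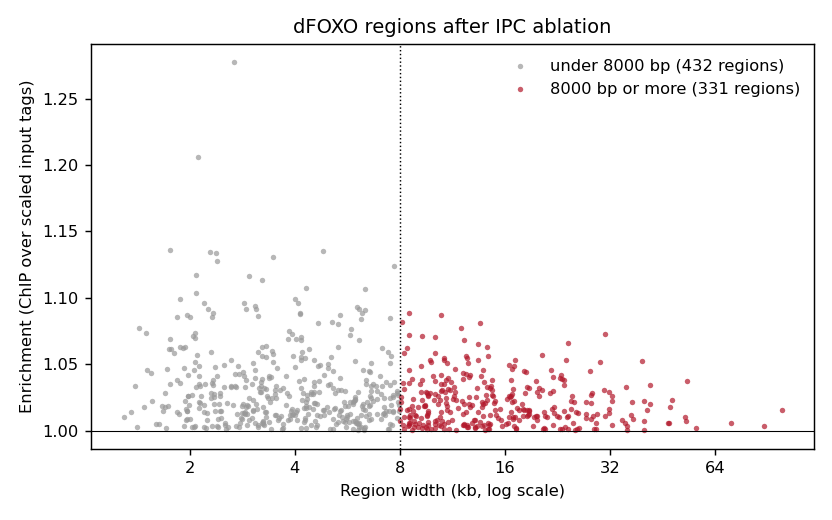
Each point is 1 of the 763 listed regions after IPC ablation, with its width in kb on a log axis and the ratio of ChIP to scaled input tags on the other axis. Broad domains (331, red) stay at or under 1.089, whereas regions under 8000 bp (432, grey) reach 1.277.

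The widest domains were listed with developmental genes, cell surface genes and mixed groups of neighbours. The domain of *fred* (FBgn0051774; 2L, 3907986 to 4007250), which encodes an immunoglobulin-type membrane protein related to Echinoid, was 99265 bp wide. It held 34623 ChIP tags against 34081 of scaled input, an enrichment of 1.016 (interval 1.001 to 1.031). Its domain was wider than the gene, whose listed span was 41637 bp.

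A domain of 88669 bp (2R, 1662134 to 1750802) was listed with the tetraspanin gene *Tsp42A* and with *CG11163*. It had 25396 ChIP tags against 25311 of scaled input, an enrichment of 1.003 (interval 0.986 to 1.021). *Tsp42A* itself spanned 714 bp, so nearly all of this domain lay outside it. The domain of *SP1173* (3L, 6635064 to 6706410) measured 71347 bp, with 20013 ChIP tags against 19901 of scaled input and an enrichment of 1.006.

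Genes of neuronal surfaces and signalling were found among the next widest. The domain of *dpr10* (3L, 10126861 to 10179632), an immunoglobulin-domain gene of the family that pairs synaptic partners, measured 52772 bp and held the whole gene of 38653 bp. Its enrichment was 1.007, from 13862 ChIP tags against 13761 of scaled input. The domain of *Dh31-R1* (2R, 9147674 to 9195981), the receptor gene of a diuretic hormone, measured 48308 bp with 14474 ChIP tags against 14143 of scaled input, an enrichment of 1.023 (interval 1.000 to 1.048). The domain of *fj* (2R, 14076170 to 14128697), which encodes a Golgi kinase of planar cell polarity, measured 52528 bp with an enrichment of 1.011. In each of these 3 domains the named gene lay wholly inside.

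Other wide domains were listed with genes of basic cell functions. A domain of 56394 bp on 2R was listed with 5 genes, *CG11474*, *CG2921*, *synj*, *GlcT-1* and *CG42257*, of which *synj* encodes a lipid phosphatase of synaptic vesicle recycling and *GlcT-1* a glucosylceramide synthase. The domain ended before the listed span of *synj* began. It had 17195 ChIP tags against 17166 of scaled input, an enrichment of 1.002. The domain listed with the splicing regulator *Psi*, *CG6426*, the translation factor *Ef1beta* and *CG8910* (2R, 12755354 to 12808713) measured 53360 bp. With 15825 ChIP tags against 15254 of scaled input it reached 1.037 (interval 1.015 to 1.061), the highest value among the 10 widest. A domain of 47514 bp over *CG42260*, *blw* and *stl* had an enrichment of 1.018, and *blw* encodes the alpha subunit of mitochondrial ATP synthase.

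**Figure D2:**
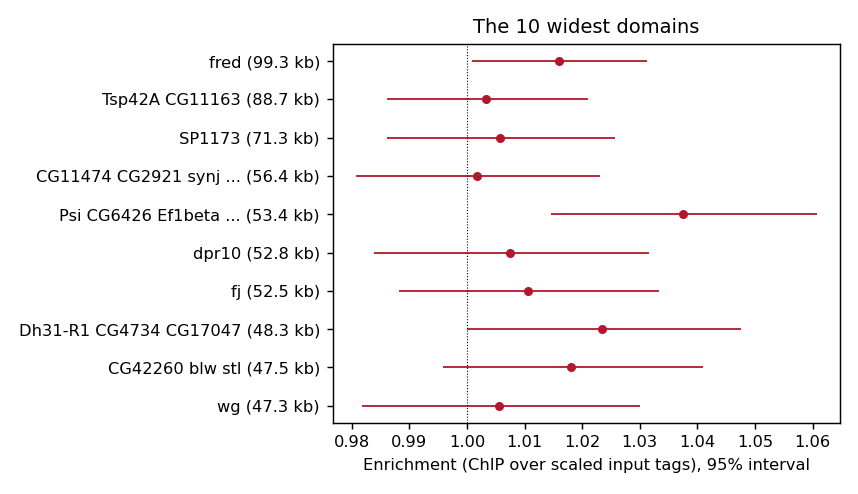
Enrichment (ChIP over scaled input tags) of the 10 widest domains, named by their listed genes and width in kb, with points for the ratio and bars for the 95% exact binomial interval, which covers counting error only. The points lie between 1.002 and 1.037, and the bar of the *Psi* domain reaches highest.

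The largest enrichments were found in narrower domains. That of *fas* (FBgn0000633; 2R, 9505316 to 9513845), which encodes an adhesion protein needed in the nervous system, was 1.089 (interval 1.027 to 1.154), from 2397 ChIP tags against 2202 of scaled input over 8530 bp. *CG8746* followed with 1.087, *CG15631* with 1.082, *dpr13* with 1.081 and *otp*, a homeobox gene of the brain and hindgut, with 1.078. These 5 domains were between 8097 and 13627 bp wide, and 4 of them lay on 2R. The 5 smallest enrichments, 1.000 to 1.001, were those of *CG34050*, the long non-coding RNA gene *CR32730*, *CG18482*, the digestive protease gene *Jon65Aiv* and *brp*, which encodes a scaffold of the synaptic active zone. The *Jon65Aiv* domain had 10000 ChIP tags against 9994 of scaled input, and the *brp* domain 12900 and 12891.

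By an exact one-sided binomial test of ChIP against scaled input tags, Benjamini-Hochberg adjusted over all listed regions, 2 broad domains had an adjusted p of 0.01 or less. The share over the whole list was 0.655%, or 5 of 763 regions. An unadjusted exact p under 0.05 was found for 67 domains, and for 14.8% of the list. Tags and widths come from the same contrast, and nothing is read from these counts. No domain passed with scaled input raised by 5%, nor with 1 input factor for all arms. Both domains are described next.

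The first spanned *Rgk2*, *Pepck* and *CG10924* (2R, 14401669 to 14441149). *Pepck* (FBgn0003067) encodes phosphoenolpyruvate carboxykinase, the enzyme of an early step of gluconeogenesis, and its mammalian counterpart is a classic FOXO1 target in liver. *CG10924* is a second gene of this enzyme, and *Rgk2* encodes a small GTPase of the RGK family. All 3 genes lay wholly inside the 39481 bp of the domain, which held 13409 ChIP tags against 12742 of scaled input, an enrichment of 1.052 (interval 1.027 to 1.078). The listed position of the region was 1029 bp from the 5′ end of *Pepck*. In *chico* flies, a region of 1901 bp inside this domain was listed with *CG42510* and *CG10924* and lay within the listed span of *CG42510*. It had 909 ChIP tags against 836 of scaled input, an enrichment of 1.09 (interval 0.989 to 1.196), which includes 1.

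The other was listed with *CG6209*, *CG13337* and *CG18368* (2R, 9549853 to 9580929), 31077 bp wide. It held 8660 ChIP tags against 8071 of scaled input, an enrichment of 1.073 (interval 1.041 to 1.106). All of it lay inside the listed span of *fas* (9510593 to 9636882), whose own domain covered the 5′ end. From the *fas* domain on, 7 broad domains followed each other over 208 kb, covering 55.7% of it, with enrichments from 1.011 to 1.089. Together they had 33815 ChIP tags and an enrichment of 1.048 (interval 1.032 to 1.064), which became 1.006 (interval 0.991 to 1.021) with 1 input factor for all arms. This stretch was chosen after its values were seen. It also held *Cpr50Ca* and *Cpr50Cb*, genes of cuticle proteins, and *stj*, which encodes a subunit of voltage-gated calcium channels.

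The arm 2R carried 175 of the 331 domains (52.9%) and 3.46 Mb of their width. Of the regions listed on 2R, 54.0% were broad, against 36.0% on 2L (50 domains), 39.5% on 3L (73 domains) and 35.1% on X (33 domains). The arm 3R had 20 listed regions, the widest of 6901 bp, and chromosome 4 had 1, so neither had a broad domain. Of the 15 domains of at least 40 kb, 11 lay on 2R, 2 on 2L and 2 on 3L. Median widths were 16399 bp on 2R, 13981 bp on 2L, 13413 bp on 3L and 11137 bp on X.

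Enrichments also differed by arm, and so did the factor by which the authors had scaled the input. The median enrichment of the domains was 1.023 on 2R, 1.012 on 2L, 1.011 on 3L and 1.010 on X. Of the 47 domains with an interval above 1, 43 lay on 2R and 4 on 2L. The input factor recovered from the list was 0.678 on 2R, 0.701 on 3L, 0.706 on 2L, 0.719 on X and 0.752 on 3R. With a single factor of 0.706 for all arms, the median enrichment became 0.982 on 2R, 1.004 on 3L, 1.012 on 2L and 1.028 on X, and 39 of the 175 domains on 2R (22.3%) stayed at 1 or above. The arm 2R went from the highest to the lowest median, and which factor is the right one was not tested. With the single factor the *fas* domain stood at 1.045, that of *Act57B* at 1.023, that of *inv* at 0.989 and that of *Psi* at 0.996. The domain of *Pepck* became 1.010 and that of *CG6209* 1.030, while *CG15631* on 2L kept 1.082, then the highest value of all domains.

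**Figure D3:**
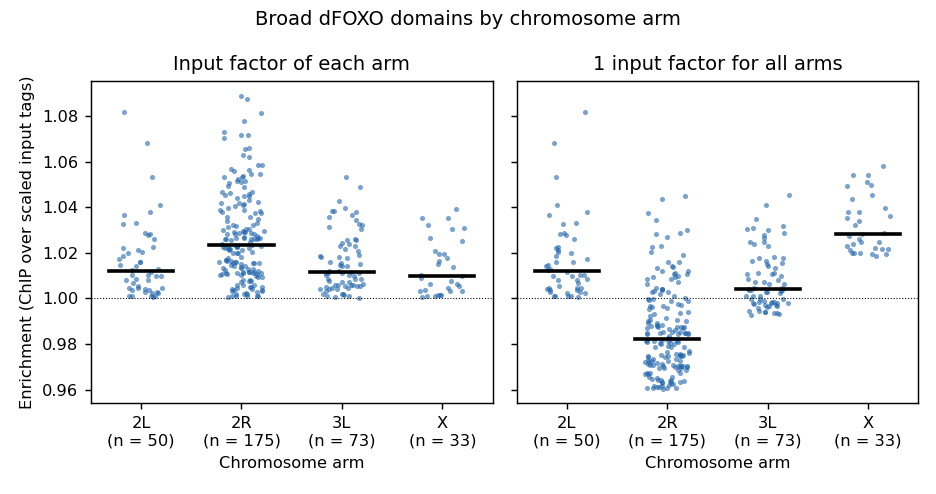
Enrichment of each broad domain by chromosome arm (50 on 2L, 175 on 2R, 73 on 3L and 33 on X), with points for domains and bars for medians, once with the authors' factor of each arm and once with 1 factor for all arms. The median of 2R is the highest with the arm factors (1.023) and the lowest with 1 factor (0.982).

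The domains were listed with 464 genes, which were 45.8% of the 1012 genes listed for any region after IPC ablation, and no gene was listed for more than 1 region. Counts of listed genes in broad domains are to be read beside this share. A single gene was listed for 235 domains, 2 genes for 69, 3 for 19, 4 for 6 and 5 for 2. The domains with 5 genes were that of *synj* and a domain on 3L (8587221 to 8603557) of 16337 bp over *CG6282*, *CG5989*, *CG32352*, the ribosomal protein gene *RpL14* and *Nelf-E*, which encodes a subunit of a factor that pauses RNA polymerase. The latter had 6214 ChIP tags against 6180 of scaled input, an enrichment of 1.006. Among the domains with 4 genes were those of *Psi*, of *CG30203*, *CG17739*, *SIP2* and *CG30046* (31914 bp, enrichment 1.029) and of *CG4927*, the cell cycle kinase gene *Cdk4*, the dopamine transporter gene *DAT* and *CG8317* (29104 bp, enrichment 1.001). At least 2 genes were listed for 29.0% of the domains, against 20.8% of the other regions, which is a comparison of wide with narrow stretches.

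Of the 464 genes, 405 overlapped their domain and 226 lay wholly inside it. In 46 cases the domain lay wholly inside the gene, and these genes had a median length of 41439 bp. The median length of all genes listed for domains was 5988 bp, against 10178 bp for genes of the other regions. The 5′ ends of 324 genes lay inside the domain. A further 62 genes that the lists pair with other regions were also overlapped, in 56 domains. An example is *Wnt4*, the neighbour of *wg*, part of whose listed span lay in the *wg* domain.

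The listed position of a region, a single base whose definition is not given in the sources used here, lay within 1000 bp of a 5′ end in 121 domains (36.6%) and 124 of the other regions (28.7%). The midpoint of the region lay as close to a 5′ end in 39 domains (11.8%) and 93 of the other regions (21.5%). The median distance of the position to the nearest listed 5′ end was 1557 bp in domains and 2904 bp in the others. The position was thus nearer to gene starts in domains and the midpoint farther from them. At *ths*, a ligand of fibroblast growth factor type, the position was 6 bp from the 5′ end. It was 62 bp at *Thor*, 86 bp at *wit*, 131 bp at *tup*, 174 bp at *wg*, 236 bp at *en* and 313 bp at *so*. These were picked as near cases, and the distance was 6306 bp at *salm*, 10911 bp at *Optix* and 49143 bp at *dpr10*. A position within 200 bp of a 5′ end was found in 29 domains (8.76%) and 29 of the other regions (6.71%).

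Some domains were near-continuous with their neighbours. Gaps under 1000 bp separated 26 of the 327 pairs of neighbouring domains, and the smallest gap was 100 bp. Counting narrower regions as links, 85 domains belonged to 58 runs of regions, 37 of them on 2R. The longest run, of *capu*, *fred* and *CG10039*, covered 112073 bp with an enrichment of 1.015. A run of 3 domains over *CG42347*, *trpl* and *CG1688* with *CG1698* covered 82303 bp with 1.023, where *trpl* encodes a light-activated channel of photoreceptors. Another run of 3 lay over the cuticle protein genes *Cpr49Ab* and *Cpr49Ag* with the odorant receptor gene *Or49a* between them (45842 bp, enrichment 1.032).

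Of the genes of insulin signalling, *Thor* was the only 1 of 22 listed ones with any region after IPC ablation, and its region was broad. The domain (FBgn0022073; 2L, 3462874 to 3490142) measured 27269 bp and also reached *CG15414*. It held 10065 ChIP tags against 9855 of scaled input, an enrichment of 1.021 (interval 0.993 to 1.050), which includes 1. The gene, 1179 bp long, took up a small stretch near the middle.

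Among 28 genes of Wnt signalling, 7 had regions and 2 of them, *wg* and *nkd*, had broad domains. That of *wg* (FBgn0004009; 2L, 7268485 to 7315754) measured 47270 bp and began far upstream of the gene (7307161 to 7316255). It held 13510 ChIP tags against 13435 of scaled input, an enrichment of 1.006 (interval 0.982 to 1.030). *nkd*, an inhibitor of the pathway, had 2882 ChIP tags against 2878 of scaled input over 9269 bp, an enrichment of 1.002. Both intervals include 1.

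Among 26 genes of TGF-β signalling, 4 had regions and *wit* alone had a broad domain. It measured 19822 bp (FBgn0024179; 3L, 4064622 to 4084443) and extended over *Faa*, which encodes an enzyme of tyrosine breakdown, and *Gad1*, which encodes the enzyme that makes GABA. It held 6623 ChIP tags against 6551 of scaled input, an enrichment of 1.011 (interval 0.977 to 1.046).

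**Figure D4:**
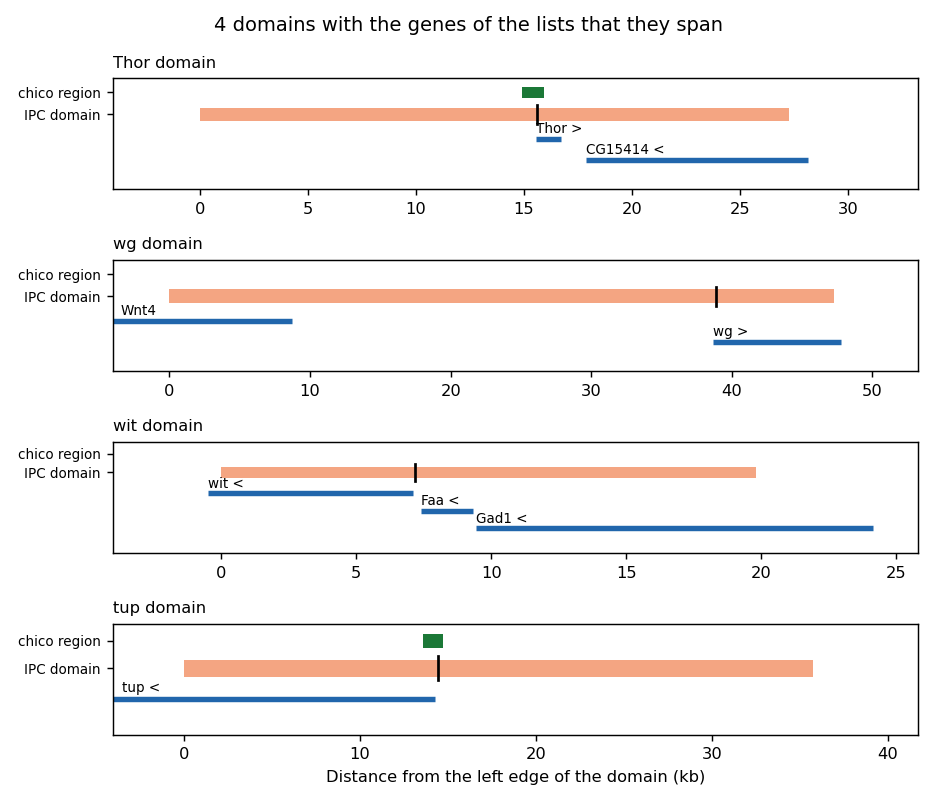
Maps of 4 domains to scale, with the distance from the start of each domain in kb. The orange bar is the domain, the black line its listed position, blue lines are genes with an arrow for the strand, and green bars are *chico* regions inside the domain. The *Thor* and *tup* maps each show 1 such region beside the position, and the *wg* and *wit* maps show none.

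Regulators of development were among the members. Of 35 genes in a list drawn up for pairs of homeobox or T-box neighbours, 12 had regions and 5 had broad domains, with a median enrichment of 1.011. The neighbours *inv* and *en*, which pattern the segments, had domains of 30778 and 36824 bp. The *inv* domain had 9202 ChIP tags against 8930 of scaled input (1.031, interval 1.001 to 1.061) and the *en* domain 10458 and 10340 (1.011, interval 0.984 to 1.039). Both domains together spanned 81.1 kb with a gap of 13506 bp. The others were *gsb-n* (1.011), *pdm2* (1.007) and *salm* (1.005), which is a zinc finger gene and of neither class. In a wider list of 60 homeobox genes, drawn up after the values were seen, 25 had regions and 15 had broad domains (45.8% of all listed genes did), with a median enrichment of 1.018. These included the eye genes *so* (1.020) and *Optix* (1.041) and the LIM-homeobox gene *tup* (1.004). A stretch of 82.6 kb over *otp*, *Rx*, *Act57B* and *CG9313*, also chosen after its values were seen, had an enrichment of 1.053 (interval 1.032 to 1.075), or 1.011 (interval 0.991 to 1.031) with 1 input factor for all arms.

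Of 36 genes of axon guidance and adhesion, 21 had regions and 8 had broad domains, with a median enrichment of 1.021, against 1.017 for all domains. Beside *fas* and *dpr10* these were *beat-Ia* (1.033), the semaphorin gene *Sema-2a* (1.026), the teneurin gene *Ten-a* (1.025), *dpr2* (1.017), the Netrin receptor gene *fra* (1.016) and the Netrin gene *NetA* (1.003). Of 38 ion channels and neurotransmitter receptors, 8 had regions and 2 had broad domains, the serotonin receptor gene *5-HT1A* (1.032) and the GABA receptor gene *Rdl* (1.016). In a list of 22 neuropeptides and their receptors, drawn up after the values were seen, 7 had regions and 6 had broad domains, where 45.8% of all listed genes did. The highest enrichments were those of the peptide genes *Dh31* (1.053, interval 1.009 to 1.099) and *Nplp2* (1.049, interval 0.995 to 1.106). The peptide gene *Dh31* and the gene of its receptor *Dh31-R1* were thus both members.

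Muscle genes and secreted ligands were 2 other lists drawn up after the values were seen. Of 31 muscle genes, 12 had regions and 10 had broad domains, beside 45.8% of all listed genes, in 9 domains with a median enrichment of 1.022. The actin gene *Act57B* had 6981 ChIP tags against 6550 of scaled input over 24232 bp, an enrichment of 1.066 (interval 1.030 to 1.103). The myoblast fusion genes *hbs* (1.070) and *sns* (1.030), the Z-disc gene *Zasp52* (1.023), the titin-like genes *sls* and *zormin* in a joint domain (1.022), the muscle regulator *Mef2* (1.013) and the troponin C gene *TpnC41C* (1.007) also had domains. Of 22 secreted ligands, 13 had regions and 7 had broad domains, with a median of 1.011, among them the neighbours *pyr* and *ths*, whose domains spanned 91.0 kb at 1.007.

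Gene families that lie in clusters were spanned in part. Of 7 cytochrome P450 genes with regions, 6 lay in 3 domains, and neighbours that share a domain are not separate cases. The share over all listed genes was 45.8%, here and for the families that follow. *Cyp9b2* and *Cyp9b1* shared a domain of 40107 bp (1.022), and *Cyp6a19*, *Cyp6a23* and *Cyp6a9* shared 8229 bp with *Pcf11* (1.001). Of 13 chemoreceptor genes with regions, 9 lay in 7 domains with a median of 1.023, with the gustatory pair *Gr59c* and *Gr59d* in 35607 bp (1.033, interval 1.005 to 1.062) and the ionotropic pair *Ir56b* and *Ir56c* in 10481 bp (1.042). Of 7 cuticle protein genes with regions, 5 had domains, with a median of 1.039. These values depend on the arm factors. With 1 input factor for all arms, the domains on 2R stood at 1.012 (*Cpr50Ca*), 1.004 (*Cpr50Cb*), 0.998 (*Cpr49Ab*) and 0.982 (*Cpr49Ag*). *Cpr73D* on 3L stood at 1.003, and the domain of *Gr59c* and *Gr59d* at 0.992. No domain was listed with a Hox gene, an Iroquois gene, a yolk protein gene or a Polycomb group gene, of each of which 2 had narrower regions. Chorion, vitelline membrane, heat shock, histone, *Enhancer of split* and achaete-scute genes had no listed region after IPC ablation, and many of the Hox, heat shock and *Enhancer of split* genes lie on 3R, which had no broad domain.

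Tag densities of ChIP and input lay close together. ChIP tags per kb had a median of 296 (range 172 to 392) and scaled input tags per kb a median of 288 (range 171 to 384). In the other regions the scaled input reached 726 tags per kb. The highest input density of a domain was that of *G-ialpha65A*, which encodes a G protein subunit, listed with *CR32385*, and this domain also had the highest listed height (1903, against a median of 226 over all domains). Its enrichment was nevertheless 1.006, from 9678 ChIP tags against 9620 of scaled input. The next heights were those of *Ef1alpha48D* (600), a translation elongation factor gene, and *Thor* (502). The height is a whole number whose definition is not given in the sources used here. The lowest input density, 171 tags per kb, was that of the ionotropic receptor gene *Ir40a*.

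The *chico* list was made from other libraries, so its regions give a separate view of these domains. Of the 1331 *chico* regions, 64 (4.81%) lay wholly inside a broad domain. They were found in 63 domains (19.0%), and 268 domains held none. By length, this was 10.8 *chico* regions per Mb of broad domain, against 10.2 per Mb in the other regions after IPC ablation, which held 18. The density over the rest of the genome is not given here and no test of overlap was made. Whether the 2 lists coincide more than their lengths alone would give was therefore not tested. The 64 regions lay on 2R (45 of the 243 *chico* regions of that arm), 3L (10 of 152), X (6 of 275) and 2L (3 of 253). A further 399 *chico* regions were listed on 3R, which had no broad domain. Domains that held a *chico* region had a median width of 17525 bp and those without had 13609 bp, with enrichments of 1.020 and 1.017.

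The *chico* regions were short stretches within their domains. Their median width was 1328 bp, against 1399 bp for *chico* regions elsewhere, and they covered a median of 7.67% of the domain. Their median enrichment was 1.12 (range 1.07 to 1.26), against 1.10 elsewhere, where the highest was 2.52. All 64 had an enrichment above that of their domain, but this count follows from the lists, since the smallest *chico* enrichment was 1.07 and the largest enrichment of a domain that held one was 1.054. After adjustment over 26819 candidate regions, none of the 64 passed the exact binomial test at 0.01, against 2.7% of the list. Adjusted over the listed *chico* regions alone, which had already been selected from the candidates, 6 passed. The share of the whole list that passed in this lenient way is not given here, so nothing is read from this count. At an unadjusted exact p under 0.05 there were 47 (73.4%), against 61.4% of the list. These tests compare the pooled *chico* libraries with counting error only.

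The 5 largest *chico* enrichments inside domains were between 1.22 and 1.26. At *Thor*, a region of 1032 bp (2L, 3477793 to 3478824) over the gene's 5′ end had 695 ChIP tags against 554 of scaled input, an enrichment of 1.26 (interval 1.12 to 1.41). Its exact p was 3.67e-05, and the adjusted p by the exact binomial test with Benjamini-Hochberg adjustment was 0.0246. Its centre lay 188 bp from the listed position of the *Thor* domain. At *CG11299*, named *Sesn* in RefSeq's gene table and encoding a sestrin, a stress-induced inhibitor of TOR signalling, the region had 771 ChIP tags against 627 of scaled input, an enrichment of 1.23 (interval 1.11 to 1.37). The domain of *CG11299* was 37313 bp wide with an enrichment of 1.009 (interval 0.986 to 1.033).

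The 3 others were a region of *CG42284*, *CG30274* and *CG30271* inside the *blw* domain (601 ChIP tags against 478 of scaled input, 1.26), that of *CG17821* (630 and 507, 1.24) and that of *CG18431* (814 and 670, 1.22). The *CG11961* domain (2R, 15226396 to 15250335) was the only domain with 2 *chico* regions. It had 8273 ChIP tags against 7856 of scaled input after IPC ablation, an enrichment of 1.053 (interval 1.021 to 1.086). Its *chico* regions, listed with *CG9975* and *CG11961*, had enrichments of 1.13 (904 and 799 tags) and 1.09 (676 and 620 tags). The *brp* domain, among those with the smallest enrichment, held a *chico* region with 825 ChIP tags against 708 of scaled input, an enrichment of 1.17 (interval 1.05 to 1.29).

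In 31 of the 64 pairs the listed position after IPC ablation lay within 500 bp of the centre of the *chico* region, and the median distance was 914 bp. The genes matched in 53 pairs. *chico* regions lay on the 5′ side inside a gene in 35 cases, on the 3′ side inside a gene in 16, upstream of a gene in 12 and downstream in 1. By genes, 120 of the 464 genes of the domains (25.9%) were also in the *chico* list, against 133 of 548 genes of the other regions (24.3%). Of these 120 genes, 65 had their *chico* region inside the domain and 55 outside it, at a median gap of 5976 bp. *wg* was one of the latter, with a *chico* region of 591 ChIP tags against 502 of scaled input (1.18, interval 1.04 to 1.33) that lay 2520 bp beyond the end of its domain. *wit* was not in the *chico* list. By ChIP-PCR, which compared the mutants with wild type, the paper reports dFOXO enrichment at every candidate in both genotypes. At *tup*, a *chico* region of 1145 bp with 616 ChIP tags against 535 of scaled input (1.15, interval 1.02 to 1.30) lay inside a domain of 35741 bp with 9995 against 9960 tags (1.004), and its centre was 261 bp from the listed position.

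**Figure D5:**
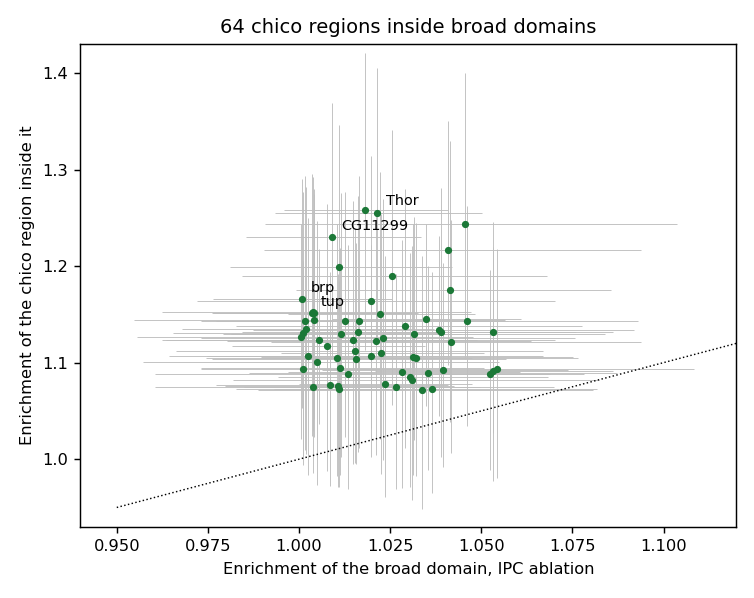
Enrichment of each of the 64 *chico* regions against that of the domain that holds it, with 95% exact binomial intervals as bars, which cover counting error only, and a diagonal for equal values. All points lie above the diagonal, and *Thor* and *CG11299* are among the highest.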

How the data were processed

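The authors pooled the reads of 2 replicates, aligned them with Bowtie and called regions with PeakSeq at an FDR of 0.01. The genome build of the lists is not given in the sources used here, and coordinates are those of the lists. In the deposited lists, ChIP tags are unscaled counts of a region. Deposited input tags count as a score, having been multiplied by a factor per arm and rounded up, and so does the deposited excess. The ratio the authors give as enrichment uses the unrounded input. Height, a deposited signal, has no stated definition for IPC ablation. The deposited p-value of every IPC region is 0 and was not used, and *chico* p-values with their adjusted values and ranks gave the number of candidate regions (26819). Total reads per sample were not used here.

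Regions were reduced to distinct ones. An exact one-sided binomial test set ChIP against scaled input tags, Benjamini-Hochberg adjusted at 0.01 over the 763 IPC regions or the *chico* candidates. The test was also run on simulated binomial counts, adjusted over the listed regions. Such counts hold neither spread between replicates nor errors of the input scaling, so nothing is read from that run. Input factors were recovered as the value of which all scaled inputs of an arm are whole multiples. Of the 464 genes, 455 matched RefSeq's Release 6 table, used for names only. Members and gene lists were chosen with earlier results of these data known. Named were the 10 widest domains, those with most genes, the 5 largest and 5 smallest enrichments, passing domains, those with several genes of 1 list, those with 2 or the 5 highest *chico* regions, and those of the candidate, TGF-β, Wnt and insulin lists. Genes named from other lists, and those named for height, density, position or runs, are additions made once values were known. Alternatives were tried for width, input scaling, adjustment, overlap and gene distance. The tools were SciPy 1.17.1, NumPy 2.4.6, Matplotlib 3.10.9 and pandas 2.3.3 under Python 3.11.15.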

Additional observations from a re-analysis of the deposited data

How the results depend on the processing

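With scaled input tags lowered by 5%, the median enrichment of the broad domains was 1.071 and the summed one 1.074, 247 domains passed, and 10 *chico* regions inside them passed. With input raised by 5%, the median was 0.969, the summed enrichment 0.971, and 0 domains passed. With 1 input factor for all arms, an alternative chosen after seeing the data, the summed enrichment was 0.995 and 0 domains passed. With unscaled input tags and the scaling placed in the expected ChIP share instead, 3 domains passed, so this count also rests on the scaling. The test at an adjusted p of 0.05 gave 8 domains and 2 *chico* regions inside, and adjustment over the listed *chico* regions gave 6. Only 5 *chico* regions of at least 1.2 lay inside, in 5 domains. The shares of the whole lists at these settings are not given here, so the counts only describe how the settings act. A minimum width of 6000 or 10000 bp gave 415 or 264 domains. No paired analysis was possible because the region lists analysed here hold the replicates of a genotype as pooled values, and for the same reason no replicate was left out. At a median depth of 4307 ChIP tags per domain, the counting interval lay wholly above 1 in 47 of 331 domains, and in 3 of the 15 domains of 40 to 100 kb, whose median depth was 14796 ChIP tags. Over the whole list this held for 74 of 763 regions.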
